A study of Drosophila melanogaster with 12 samples.

Results

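Whole-body RNA-seq libraries of adult *Drosophila melanogaster* females were used to ask where the transcriptional response to loss of the estrogen-related receptor (*ERR*) differed between a pair of conditional alleles, ERR[cond.2] (below cond.2) and ERR[cond.19-4] (cond.19-4). For each gene, the response with an allele was the log2 ratio of knockout over control. The quantity described here is the log2 difference, the cond.2 response minus the cond.19-4 response, so that a negative value means a lower or more negative response with cond.2. It was estimated for 10029 of the 17558 genes in the count table, those with enough counts, from all 12 libraries in 1 fit of 4 groups.

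Each group had 3 libraries of 10 females, from independent experiments. The cond.2 knockout females carry an FRT-flanked *ERR::GFP* transgene over the *ERR1* and *ERR2* mutant alleles and were heat shocked at 37 °C, with 24 h between the heat shocks, when they were at most 2 days old. Their cond.2 control siblings have the same alleles and were not heat shocked. The cond.19-4 knockout females carry an FRT-flanked endogenous *ERR* in an *ERR2* background and had the same heat shocks, and the cond.19-4 control siblings had none. All females were collected 7 days after the heat shock. *ERR2* deletes the *ERR* coding region with parts of *Atg18a* and *CG7979*, while *ERR1* has a small deletion and point mutations, so control flies of both stocks are themselves mutant for at least 1 copy. Loss of *ERR* and the heat shock itself cannot be told apart with either allele, and the allele cannot be told apart from the rest of the genetic background of its stock. Column names carry an allele number, and number 2 was read as cond.2, although no source used here states that match.

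ERR is an orphan nuclear receptor, a transcription factor best known in flies for switching on glycolysis and related sugar metabolism. Glycolysis splits glucose into pyruvate through a chain of enzymes, most of them encoded by genes that ERR activates in larvae. In adult females the fat body makes yolk and haemolymph proteins, and the ovarian follicle cells make the eggshell. A whole-fly library mixes these tissues, and fewer cells of a type cannot be told apart from less RNA per cell.

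Libraries held 17167432 to 20625801 counts. On the first principal component (81.1% of the variance of the 500 most variable genes) the 6 cond.2 libraries stood at −44.5 to −8.91 and the 6 cond.19-4 libraries at 25.5 to 31.2, so the stocks separated before any effect of the knockout. The cond.2 replicates also varied more, with a median biological coefficient of variation of 0.13 against 0.0763 with cond.19-4. Markers of ovary, germline, fat body, muscle and head were all detected in every library, and male markers reached at most 6 counts in a library.

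*ERR* itself (FBgn0035849, chromosome 3L from 8183361 to 8186671, coordinates throughout as in the count table) had 9.53, 10.4 and 10.3 CPM (counts scaled to the library size) in cond.2 knockouts, against 8.52, 12.1 and 9.34 CPM in their controls, which overlap. It had 4.01, 3.25 and 3.81 CPM in cond.19-4 knockouts, against 7.76, 6.38 and 5.62 CPM in their controls, where every knockout library was lower. The cond.2 response was 0.01 (SE 0.16, adjusted p = 0.962, edgeR) and the cond.19-4 response −0.84 (SE 0.17, adjusted p = 0.0476, edgeR). The log2 difference of 0.85 (SE 0.24) missed the threshold (adjusted p = 0.110, edgeR). The counts cover the whole gene and do not separate the *ERR1* copy of the cond.2 flies from the transgene. They show no fall of *ERR* with cond.2, and the reason was not tested. They therefore do not check the labels of the cond.2 groups.

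Of the 10029 genes, 6 had a response that differed between the alleles at a Benjamini-Hochberg adjusted p under 0.05 by the quasi-likelihood test of edgeR. All 6 (0.0598% of genes tested) were more negative with cond.2 and none (0%) was more positive, where the lowest adjusted p was 0.0570 (edgeR). They were 3 glycolytic transcripts, *Gapdh2*, *Tpi* and *Pfk*, and *Lsp1alpha*, *Cyp4e3* and *GstD2*. At an adjusted p under 0.10 there were 76 more negative (0.758%) and 110 more positive genes (1.1%). At an unadjusted p under 0.05 there were 1043 (10.4%) and 1179 (11.8%), a split that became 662 and 1543 with library sizes from total counts. List counts at that p, given below, stand beside these shares of all genes. DESeq2 tested 9120 genes and called 201 more negative (2.2%) and 258 more positive (2.83%), among them all 6 genes called by edgeR. Of these 459 genes, 458 had an unadjusted p under 0.05 by edgeR and 183 an adjusted p under 0.10.

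The edgeR count rested on single libraries. It was 489 without knockout library 3 of cond.2 (245 more negative and 244 more positive) and 98 without control library 2 of cond.2. It was 1 without knockout library 2 of cond.2, knockout library 1 of cond.19-4 or control library 1 of cond.19-4. It was 2 without knockout library 3 or control library 3 of cond.19-4 and 3 without knockout library 2 of cond.19-4. *Gapdh2* was called in each of 23 alternative fits, *Tpi* in 16, *Lsp1alpha* in 15 and *Pfk*, *Cyp4e3* and *GstD2* in 10 each, and the log2 difference of each of the 6 stayed negative in all 23.

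In the same fit the cond.2 response alone passed the threshold for 628 lower (6.26%) and 786 higher genes (7.84%; 380 and 1032 with library sizes from total counts), and the cond.19-4 response for 53 lower (0.528%) and 41 higher genes (0.409%). The order of these counts turned in separate fits of the 6 libraries per allele, with 61 genes for cond.2 and 360 for cond.19-4. The single-allele p-values given here and below use the spread pooled over the 4 groups, not that of each allele. The cond.2 count was also 378 without knockout library 1 of cond.2 and 566 without control library 1 of cond.2. The differences were of several kinds. Of the 186 genes with a difference at an adjusted p under 0.10 (edgeR), 123 had an unadjusted p under 0.05 for the cond.2 response alone and 17 for the cond.19-4 response alone. Another 8 moved the same way with both alleles by that measure, and 38 moved in opposite ways, 25 of them lower with cond.2 and 13 higher with cond.2. Over these 186 genes the median absolute response was 0.53 with cond.2 and 0.15 with cond.19-4 on the log2 scale.

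**Figure D1:**
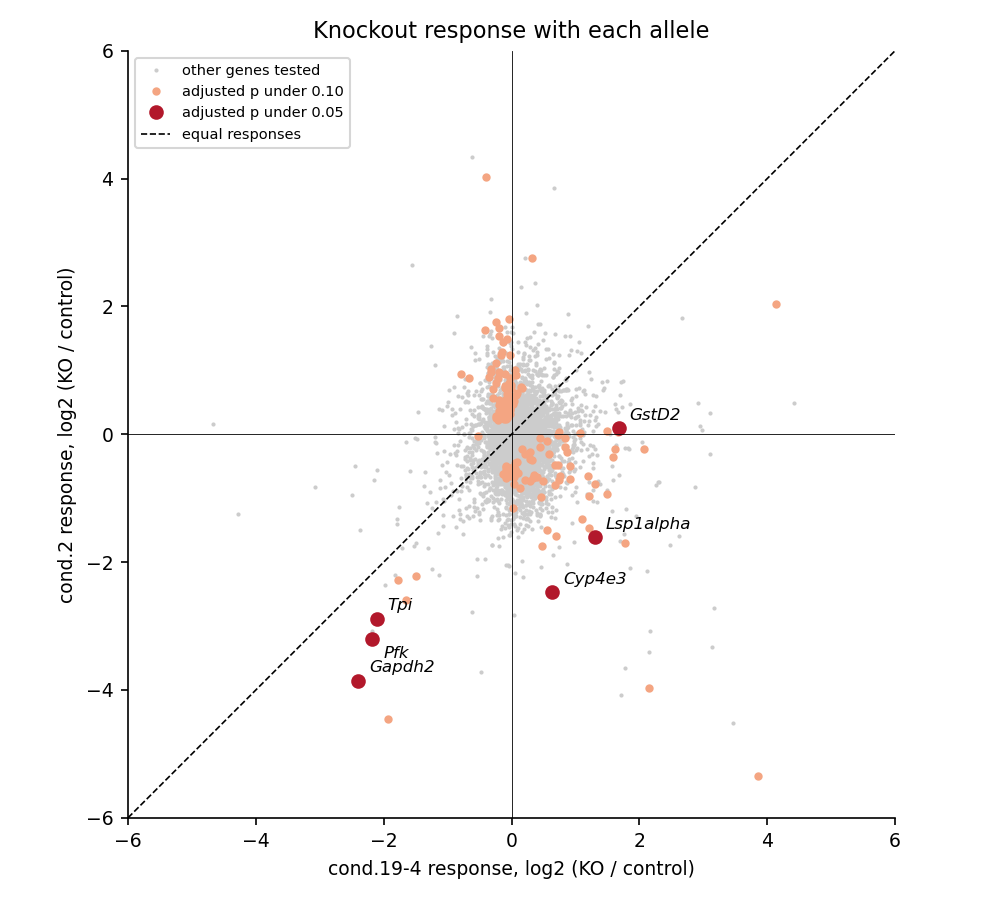
Log2 ratio of knockout over control with cond.2 (vertical axis) against the ratio with cond.19-4 (horizontal axis) for the 10029 genes tested; the dashed line marks equal responses. Genes with a difference at an adjusted p under 0.05 (edgeR, red) or under 0.10 (orange) are marked, and the 6 red genes all lie below the line.

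Glycolytic transcripts fell with both alleles, and the fall was deeper with cond.2 for *Gapdh2*, *Tpi* and *Pfk*. Of the 13 glycolytic genes, 11 were lower in knockouts with cond.2 and 11 with cond.19-4 (edgeR, adjusted p under 0.05). Over all genes the shares were 6.26% and 0.528%. The median response of the list was −1.78 with cond.2 and −1.50 with cond.19-4, against 0.00 and −0.01 over all genes tested. The median log2 difference was −0.51, against 0.00 over all genes, and 11 of the 13 were negative. At an unadjusted p under 0.05, 9 were more negative and 1 more positive with cond.2.

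*Gapdh2* (FBgn0001092, chromosome X from 15868145 to 15869661) encodes glyceraldehyde-3-phosphate dehydrogenase. It had 87.6, 92.5 and 88.8 CPM in cond.2 knockouts, against 1240, 1278 and 1376 CPM in cond.2 controls. It had 336.7, 378.4 and 302.8 CPM in cond.19-4 knockouts, against 1737, 1766 and 1844 CPM in cond.19-4 controls. No group overlapped another, and the cond.2 knockouts were the lowest by a wide margin. It fell by 3.86 on the log2 scale (SE 0.09) with cond.2 and by 2.39 (SE 0.08) with cond.19-4, a log2 difference of −1.46 (SE 0.11, adjusted p = 0.000178, edgeR). The knockouts of the alleles differed by −1.92 and the controls by −0.46, cond.2 minus cond.19-4. Over the 23 alternatives its log2 difference ranged from −1.54 to −1.38 and its adjusted p reached at most 0.0469.

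Its paralog *Gapdh1*, which catalyses the same step, had 238.1, 233.8 and 240.4 CPM in cond.2 knockouts, against 797.7, 740.1 and 774.9 CPM in cond.2 controls. It had 310.8, 330.3 and 298.6 CPM in cond.19-4 knockouts, against 861.9, 855.2 and 930.2 CPM in cond.19-4 controls. Knockouts lay below controls with both alleles and the cond.2 knockouts below those of cond.19-4. The responses of −1.70 and −1.49 were nearer to each other than those of *Gapdh2*, and their difference of −0.20 (SE 0.08) missed the threshold (adjusted p = 0.189, edgeR). Reads from similar stretches of the paralogs could be split between them in counting.

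*Tpi* (FBgn0086355, chromosome 3R from 30132981 to 30134599) encodes triosephosphate isomerase, which interconverts the products of aldolase. It had 63.8, 66.0 and 65.8 CPM in cond.2 knockouts, against 469.4, 485 and 490.4 CPM in cond.2 controls. It had 148.4, 169.2 and 137.8 CPM in cond.19-4 knockouts, against 650.3, 643.5 and 666.2 CPM in cond.19-4 controls. The 3 cond.2 knockouts lay within 3 CPM of each other and below every other library. It fell by 2.88 (SE 0.07) with cond.2 and by 2.11 (SE 0.07) with cond.19-4 on the log2 scale, a log2 difference of −0.78 (SE 0.10, adjusted p = 0.0174, edgeR). The call was lost without knockout library 2 of cond.2 (adjusted p = 0.0537, edgeR) and without knockout library 1, control library 1 or control library 3 of cond.19-4 (0.0833, 0.0605 and 0.0654).

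*Pfk* (FBgn0003071, chromosome 2R from 10109740 to 10117457) encodes phosphofructokinase, the committing step of the pathway. It had 12.8, 11.5 and 11.1 CPM in cond.2 knockouts, against 94.2, 116.5 and 115 CPM in cond.2 controls. It had 33.7, 38.8 and 30.7 CPM in cond.19-4 knockouts, against 154.4, 148 and 169 CPM in cond.19-4 controls. The groups did not overlap, and the cond.2 knockouts were again the lowest. It fell by 3.20 (SE 0.11) with cond.2 and by 2.19 (SE 0.10) with cond.19-4, a log2 difference of −1.01 (SE 0.15, adjusted p = 0.0410, edgeR). The call was lost without knockout library 2 or control library 3 of cond.2 and without any 1 of the 6 libraries of cond.19-4, and the adjusted p reached 0.136 without knockout library 1 of cond.19-4 (edgeR).

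Further down the pathway, *Eno* (enolase) and *Pgk* (phosphoglycerate kinase) narrowly missed the threshold. *Eno* had 189.6, 211.9 and 210.6 CPM in cond.2 knockouts, against 1038, 967.9 and 966.6 CPM in cond.2 controls. It had 281.6, 295.7 and 264.2 CPM in cond.19-4 knockouts, against 943.7, 957 and 966.3 CPM in cond.19-4 controls. The controls of the stocks were within 1 SE of each other (log2 difference of the controls 0.05, SE 0.06), and its knockouts were lower with cond.2. The log2 difference of the responses was −0.51 (SE 0.09, adjusted p = 0.0570, edgeR). That of *Pgk* was −0.72 (SE 0.13, adjusted p = 0.0570, edgeR), where cond.2 controls were the higher controls by 0.41. DESeq2 called both genes.

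The other steps did not move as one. *Pglym78* (phosphoglycerate mutase) had a log2 difference of −0.37 and *Ald* (aldolase) of −0.36, each with an adjusted p above 0.1 (0.116 and 0.164, edgeR). *Pgi*, the isomerase at the second step, had nearly equal responses of −1.78 and −1.71 (log2 difference −0.07, unadjusted p = 0.487). *PyK* (pyruvate kinase) had the opposite sign, with responses of −0.83 and −1.04 (log2 difference 0.21, adjusted p = 0.238, edgeR), and so had the hexokinase *Hex-A* (0.19, adjusted p = 0.156). *Hex-C*, the fat body hexokinase, had a response of −0.56 with cond.2 and 0.40 with cond.19-4 (log2 difference −0.96, adjusted p = 0.114, edgeR). *ImpL3* (lactate dehydrogenase) had a log2 difference of −0.74 (unadjusted p = 0.112). *Ald*, *Pglym78*, *Pgi*, *PyK*, *ImpL3* and the hexokinases were named to complete the pathway after their values had been seen.

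**Figure D2:**
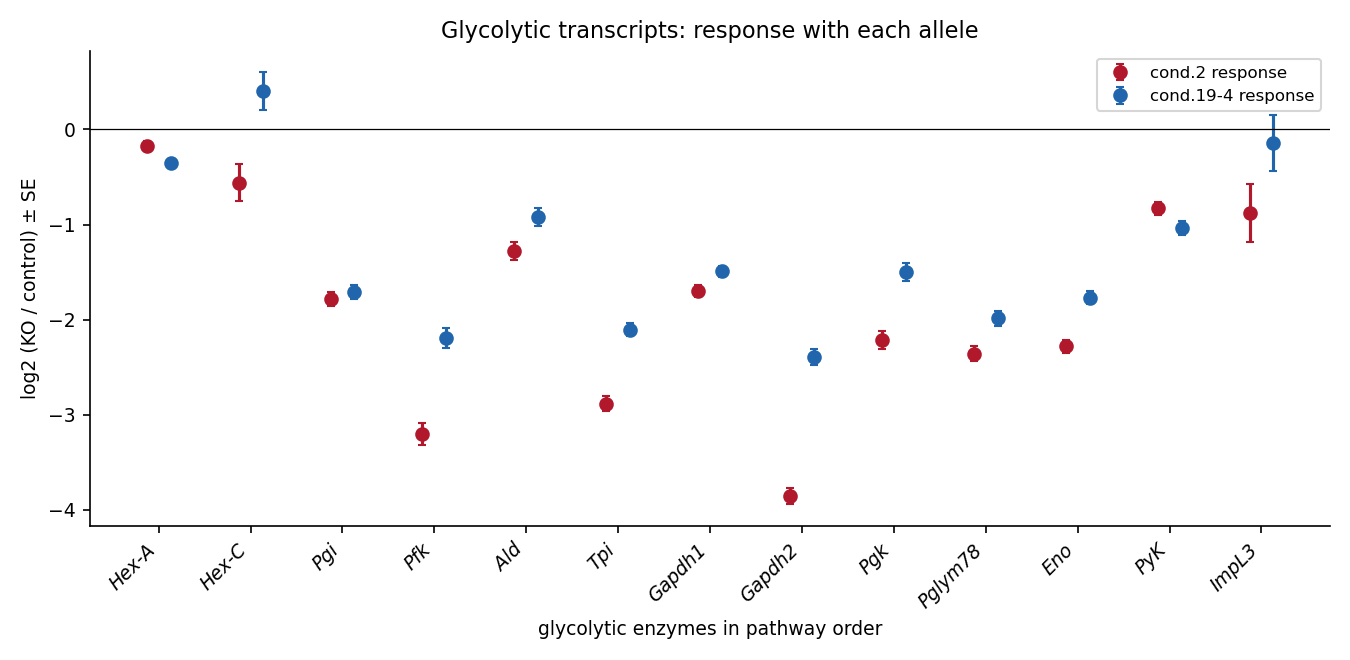
Log2 ratio of knockout over control with its SE for the 13 glycolytic genes in pathway order, with cond.2 in red and cond.19-4 in blue. The points are farthest apart at *Gapdh2*, *Pfk* and *Hex-C*, while *Pgi* has nearly equal responses and *Hex-A* and *PyK* are lower with cond.19-4.

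Neighbouring sugar pathways were less clear. The 7 pentose phosphate genes, which branch off from glucose-6-phosphate, had median responses of −0.49 with cond.2 and −0.49 with cond.19-4, and none passed the threshold for a difference. *Zw*, its first enzyme, had a response of −0.49 with each allele (log2 difference 0.00, SE 0.14), and the sign of that difference turned in several alternatives. *Pgd* (6-phosphogluconate dehydrogenase) had responses of −0.84 and −0.33, a log2 difference of −0.51 (SE 0.18, adjusted p = 0.151, edgeR). Among the 11 glycogen and trehalose genes, 5 were more negative with cond.2 at an unadjusted p under 0.05 and none more positive, with a median log2 difference of −0.54. That median was −0.27 without control library 1 of cond.2 and −0.11 without libraries 1 of both cond.2 groups. *Pgm* (phosphoglucomutase) had 54.4, 85.1 and 79.4 CPM in cond.2 knockouts, against 525.3, 377.6 and 421.6 CPM in cond.2 controls, and 76.6, 79.5 and 64.6 CPM in cond.19-4 knockouts, against 226.4, 219.1 and 245.8 CPM in cond.19-4 controls. Its knockouts overlapped between the alleles while its controls did not, and the log2 difference was −0.95 (SE 0.22, adjusted p = 0.0939, edgeR). *Gpdh*, the cytosolic glycerol-3-phosphate dehydrogenase that recycles NADH, went the other way, with a response of −0.03 with cond.2 and a fall of 0.53 with cond.19-4 (log2 difference 0.50, SE 0.11, adjusted p = 0.0827, edgeR).

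*CG32444*, predicted to encode an aldose 1-epimerase, fell with both alleles. It had 2.71, 7.42 and 4.27 CPM in cond.2 knockouts, against 131.6, 63.7 and 121 CPM in cond.2 controls. It had 22.1, 28.8 and 11.2 CPM in cond.19-4 knockouts, against 83.6, 63.1 and 90.7 CPM in cond.19-4 controls. Controls of the stocks overlapped, and cond.2 knockouts were lower than all cond.19-4 knockouts. The responses were −4.45 (SE 0.42) and −1.93 (SE 0.36), and their difference of −2.51 (SE 0.54) missed the threshold by edgeR (adjusted p = 0.0859) and passed it by DESeq2 (adjusted p = 0.00684).

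*Lsp1alpha* (FBgn0002562, chromosome X from 12490291 to 12492982), a larval serum protein that stores amino acids, moved in opposite ways. It had 11.8, 13.5 and 13.4 CPM in cond.2 knockouts, against 52.0, 44.4 and 21.8 CPM in cond.2 controls. It had 36.5, 27.2 and 34.6 CPM in cond.19-4 knockouts, against 12.3, 11.0 and 16.5 CPM in cond.19-4 controls. Knockouts lay below all their controls with cond.2 and above all of them with cond.19-4. It fell by 1.61 (SE 0.27, adjusted p = 0.00555, edgeR) with cond.2 and rose by 1.31 (SE 0.26, adjusted p = 0.0425, edgeR) with cond.19-4, a log2 difference of −2.92 (SE 0.38, adjusted p = 0.0174, edgeR). The call was lost without knockout library 2 of cond.2 (adjusted p = 0.0537, edgeR) or without knockout library 1, knockout library 3 or control library 1 of cond.19-4 (0.0840, 0.0589 and 0.0605).

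The 3 other storage protein genes tested had the same sign, with log2 differences of −2.28 for *Fbp1*, the receptor for larval serum proteins, −2.22 for *Lsp1beta* and −1.37 for *Lsp2* (adjusted p = 0.0570, 0.0921 and 0.151, edgeR). *Fbp1* had 1.70, 2.02 and 2.06 CPM in cond.2 knockouts, against 4.78, 4.70 and 7.89 CPM in cond.2 controls, and 6.66, 7.14 and 7.23 CPM in cond.19-4 knockouts, against 5.16, 5.01 and 2.76 CPM in cond.19-4 controls. As with *Lsp1alpha*, knockouts lay below all their controls with cond.2 and above all of them with cond.19-4. The cond.2 knockouts of *Fbp1* were below every other library, while those of *Lsp1alpha* overlapped the cond.19-4 controls. Over the 4 genes the median response was −1.60 with cond.2 and 0.59 with cond.19-4, and the median log2 difference of −2.25 stayed between −2.45 and −2.11 when any 1 library was left out. The other 2 genes of the list, *Lsp1gamma* and *Fbp2*, had at most 6 counts in all and were not tested.

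*Cyp4e3* (FBgn0015035, chromosome 2L from 9747839 to 9750071) is a cytochrome P450, one of a family of oxidases for hormones, lipids and toxins. It had 11.0, 16.9 and 13.6 CPM in cond.2 knockouts, against 120.9, 56.2 and 53.4 CPM in cond.2 controls. It had 4.96, 5.05 and 3.32 CPM in cond.19-4 knockouts, against 3.14, 2.58 and 2.81 CPM in cond.19-4 controls. Every cond.2 library was above every cond.19-4 library, and control library 1 of cond.2 was the highest. It fell by 2.47 (SE 0.29, adjusted p = 0.000646, edgeR) with cond.2, and its cond.19-4 response was 0.64 (SE 0.36, adjusted p = 0.742, edgeR). The log2 difference was −3.11 (SE 0.46, adjusted p = 0.0410, edgeR) and the controls differed by 4.75 between the stocks. The call was lost without knockout library 1 or 2 of cond.2 and without any 1 of the 6 libraries of cond.19-4, with an adjusted p of up to 0.146 without control library 3 of cond.19-4 (edgeR).

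At an unadjusted p under 0.05, 10.4% of all genes were more negative and 11.8% more positive with cond.2. Of the 74 P450 genes tested, 21 (28.4%) and 2 (2.70%) were. Their median log2 difference was −0.61, and the family took 0.638, 1.39 and 0.981% of the counts in cond.2 knockouts and 2.09, 1.16 and 1.5% in cond.2 controls. It took 0.311 to 0.325% in cond.19-4 knockouts and 0.29 to 0.308% in cond.19-4 controls. The shares of the cond.2 groups overlapped, and the median moved to −0.34 without control library 1 of cond.2 and to −0.17 without libraries 1 of both cond.2 groups, with 11 genes more negative in each case. It was −0.83 without knockout library 2 of cond.2, with 32 genes, and 13 genes were more negative without knockout library 2 or control library 2 of cond.19-4. *Cyp12c1*, the P450 next in line, had a log2 difference of −1.15 (SE 0.20, adjusted p = 0.0570, edgeR), from responses of −0.48 and 0.68.

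*GstD2* (FBgn0010038, chromosome 3R from 12371971 to 12372704) encodes a delta class glutathione S-transferase, an enzyme that conjugates toxins and lipid peroxides to glutathione. It had 14.8, 19.2 and 23.2 CPM in cond.2 knockouts, against 16.6, 18.7 and 18.0 CPM in cond.2 controls. It had 12.7, 12.6 and 12.5 CPM in cond.19-4 knockouts, against 3.54, 4.87 and 3.32 CPM in cond.19-4 controls. The cond.19-4 controls lay below all 9 other libraries, and the cond.19-4 knockouts lay closer to, but still below, the cond.2 libraries. The cond.2 response was 0.10 (SE 0.16, adjusted p = 0.714, edgeR), and it rose by 1.69 (SE 0.18, adjusted p = 0.000256, edgeR) with cond.19-4, a log2 difference of −1.59 (SE 0.24, adjusted p = 0.0433, edgeR). The controls differed by 2.18 between the stocks and the knockouts by 0.60. The call was lost without knockout library 2, control library 1 or control library 3 of cond.2 and without any 1 library of cond.19-4 except control library 2, where the adjusted p reached 0.146 without control library 3 (edgeR).

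**Figure D3:**
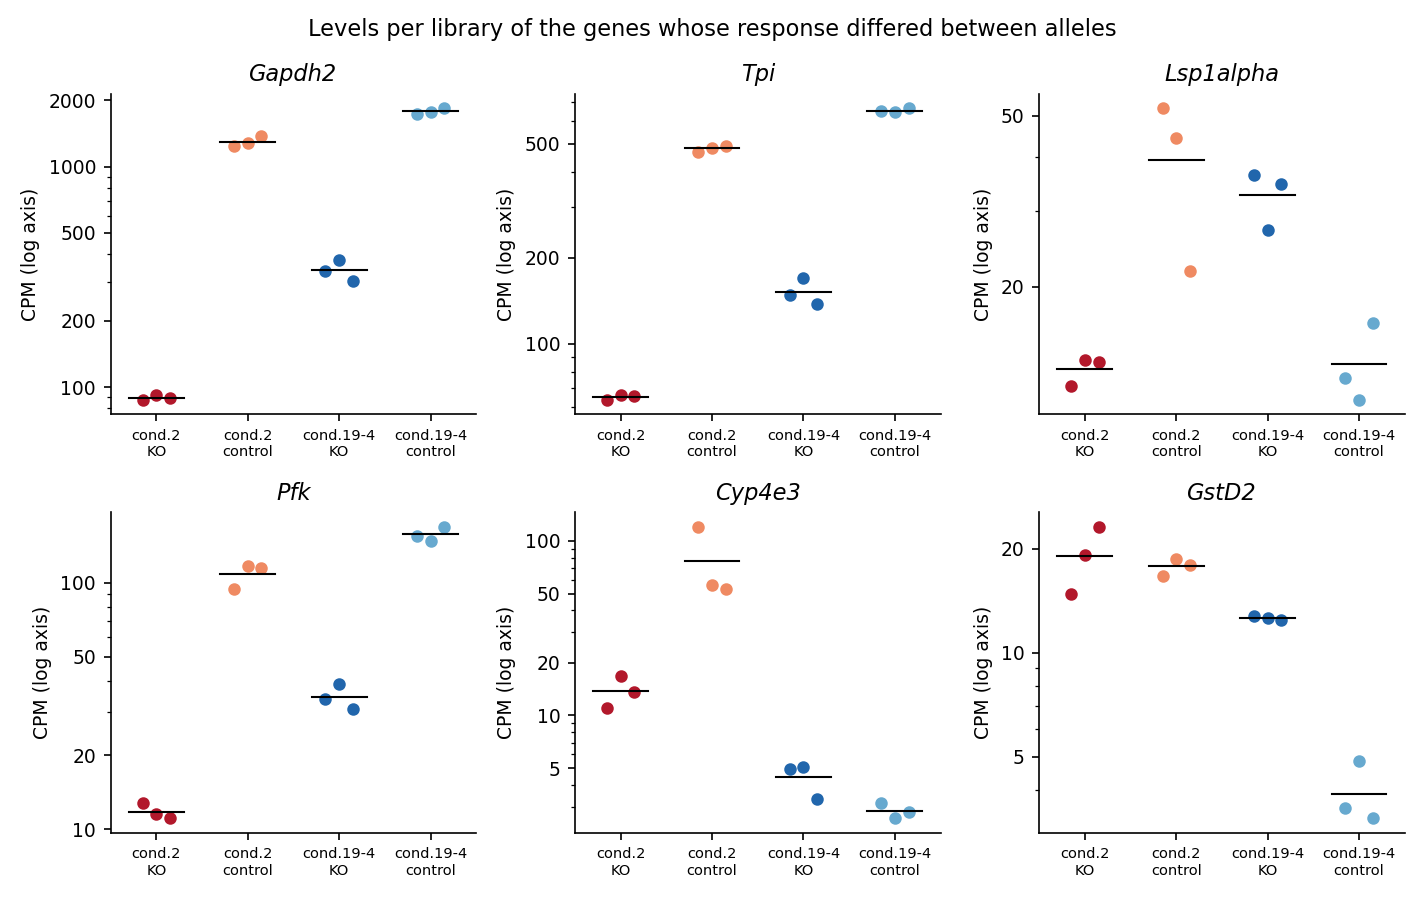
CPM on a log axis in each of the 12 libraries (points) with the mean of each group (bar) for the 6 genes whose response differed at an adjusted p under 0.05 (edgeR). Knockouts are lower with both alleles for *Gapdh2*, *Tpi* and *Pfk*, lower with cond.2 and higher with cond.19-4 for *Lsp1alpha*, lower with cond.2 for *Cyp4e3*, and higher with cond.19-4 for *GstD2*.

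The delta class as a whole leaned the same way. Of its 10 genes tested, 9 had a negative log2 difference, 5 of them at an unadjusted p under 0.05, and the median responses were 0.06 with cond.2 and 1.00 with cond.19-4. Beside *GstD2*, *GstD10* had 7.77, 7.82 and 9.9 CPM in cond.2 knockouts, against 7.86, 9.1 and 8.3 CPM in cond.2 controls, and 14.3, 12.9 and 11.6 CPM in cond.19-4 knockouts, against 6.37, 6.23 and 5.92 CPM in cond.19-4 controls. The cond.19-4 knockouts were its highest libraries, unlike *GstD2*, and its log2 difference was −1.05 (SE 0.19, adjusted p = 0.0570, edgeR). *GstD5* had a log2 difference of −1.58 (SE 0.40, adjusted p = 0.102, edgeR), and *GstD1* of −0.16 (adjusted p = 0.247, edgeR). The genes lie in a cluster of similar sequences, and reads could be split among them in counting. The 14 epsilon class genes had a median log2 difference of −0.04, with 1 more negative and 0 more positive at an unadjusted p under 0.05.

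Antimicrobial peptide genes, the immune effectors of the fat body, had the most negative median of the lists. Of 17 tested, all had a negative log2 difference, 14 at an unadjusted p under 0.05, and 0 passed the threshold by edgeR and 9 by DESeq2. The median response was −1.65 with cond.2 and 1.72 with cond.19-4. Single libraries stood far above the rest. *Dro* (drosocin) had 11.4, 15.1 and 14.3 CPM in cond.2 knockouts, against 52.3, 6.43 and 209.3 CPM in cond.2 controls, and 15.7, 19.4 and 324.4 CPM in cond.19-4 knockouts, against 19.1, 9.44 and 11.4 CPM in cond.19-4 controls. Control library 3 of cond.2 and knockout library 3 of cond.19-4 were far above the others, and the groups overlapped. Its log2 difference of −5.88 (SE 1.70, adjusted p = 0.115, edgeR) became −3.11 without knockout library 3 of cond.19-4. The list took 0.176% of counts in control library 3 of cond.2, 0.102% in knockout library 3 of cond.19-4 and 0.095% in control library 1 of cond.2, and 0.0243 to 0.0425% in the other 9. The list median was −2.01 without knockout library 3 of cond.19-4 (9 genes at an unadjusted p under 0.05) and −2.30 without control library 3 of cond.2 (10 genes).

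*Def* (defensin) was the member nearest the threshold. It had 18.7, 31.0 and 21.5 CPM in cond.2 knockouts, against 30.5, 22.6 and 30.6 CPM in cond.2 controls, and 20.4, 25.7 and 15.7 CPM in cond.19-4 knockouts, against 8.3, 5.84 and 6.03 CPM in cond.19-4 controls. The cond.19-4 controls were below all 9 other libraries, which overlapped. Its response was −0.23 with cond.2 and it rose by 1.61 (SE 0.24, adjusted p = 0.00372, edgeR) with cond.19-4, a log2 difference of −1.84 (SE 0.32, adjusted p = 0.0570, edgeR). Peptidoglycan recognition proteins are sensors and scavengers of bacterial cell wall. Of the 12 tested, 9 (75%) were more negative with cond.2 at an unadjusted p under 0.05 and 0 more positive. Over all genes the shares were 10.4% and 11.8%. The median log2 difference of the 12 genes, −1.03, stayed between −1.18 and −0.86 when any 1 library was left out.

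**Figure D4:**
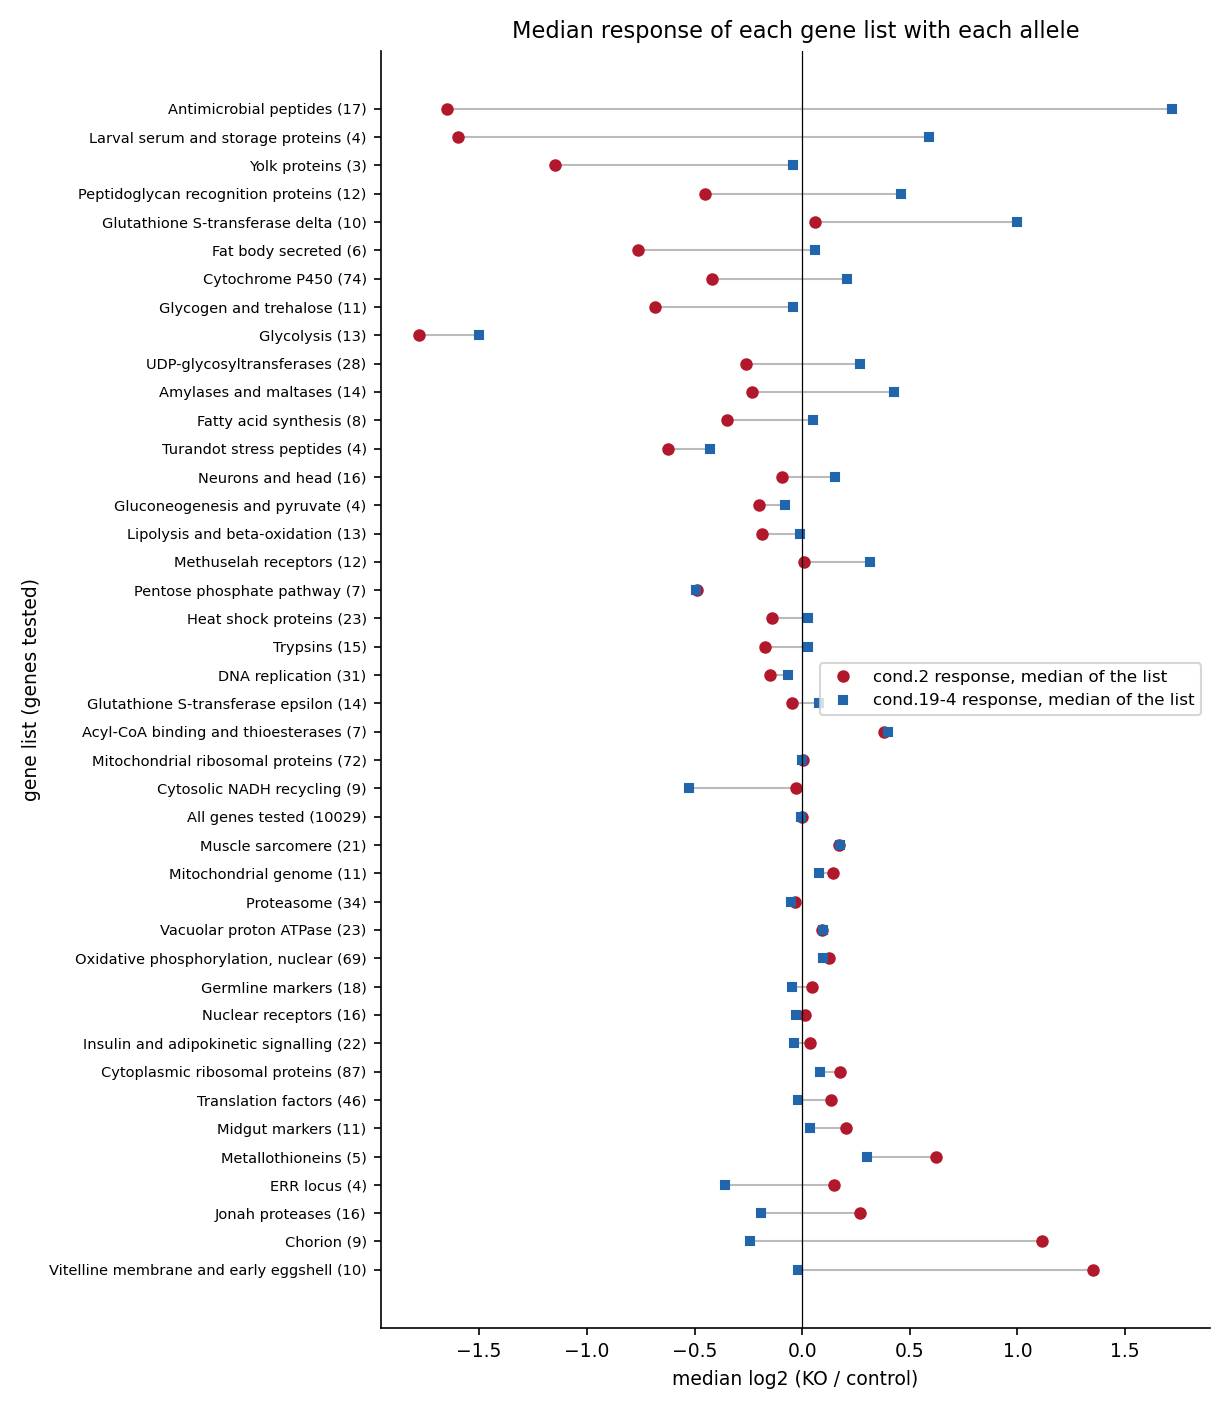
Median log2 ratio of knockout over control with cond.2 (red circles) and cond.19-4 (blue squares) over the genes tested of each list, ordered by the median log2 difference, with the number of genes in parentheses. Antimicrobial peptides, storage proteins and yolk proteins stand at 1 end and vitelline membrane and chorion genes at the other, while all 10029 genes have medians near 0.

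Genes of egg production had log2 differences of opposite sign for yolk and for eggshell. All 3 yolk protein genes, made by fat body and follicle cells, were more negative with cond.2 at an unadjusted p under 0.05, with a median log2 difference of −1.07. The 10 vitelline membrane and early eggshell genes and the 9 chorion genes, made by follicle cells, had median log2 differences of 1.41 and 1.34. Of these, 9 and 9 were more positive at an unadjusted p under 0.05 and 0 and 0 more negative. None passed the threshold by edgeR, and DESeq2 called 2 yolk, 7 vitelline membrane and 3 chorion genes.

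The median responses of the yolk, vitelline membrane and chorion lists were −1.15, 1.35 and 1.12 with cond.2 and −0.04, −0.02 and −0.24 with cond.19-4. Yolk protein genes took 2.9, 3.73 and 5.01% of counts in cond.2 knockouts, against 8.65, 5.65 and 8.26% in cond.2 controls, and 2.93, 2.95 and 2.95% in cond.19-4 knockouts, against 2.77, 2.84 and 3.37% in cond.19-4 controls. Vitelline membrane and early eggshell genes took 1.71, 1.36 and 0.936% in cond.2 knockouts, against 0.328, 0.719 and 0.564% in cond.2 controls, and 1.79, 1.77 and 1.88% in cond.19-4 knockouts, against 1.64, 1.74 and 2.13% in cond.19-4 controls. The cond.2 controls were the highest libraries for yolk proteins and the lowest for vitelline membrane genes, and the cond.2 knockouts reached beyond the range of the cond.19-4 libraries in both lists. The median difference between the controls was 1.41 for yolk proteins and −1.49 for vitelline membrane genes, cond.2 minus cond.19-4, and that between the knockouts was 0.29 and −0.50. Chorion genes took 2.56, 2.2 and 1.4% in cond.2 knockouts, against 0.523, 1.36 and 1.01% in cond.2 controls, and 2.3 to 2.39% in cond.19-4 knockouts, against 2.23 to 2.8% in cond.19-4 controls. The 18 germline genes took 0.31 to 0.346% in cond.2 knockouts, 0.303 to 0.343% in cond.2 controls, 0.347 to 0.352% in cond.19-4 knockouts and 0.359 to 0.367% in cond.19-4 controls. What part such shifts in tissue markers have in the other differences was not tested.

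Single genes show the pattern. *Yp3* (yolk protein 3) had 11530, 14430 and 18370 CPM in cond.2 knockouts, against 40170, 23070 and 35710 CPM in cond.2 controls, and 12560 to 12760 CPM in cond.19-4 knockouts, against 10800 to 14700 CPM in cond.19-4 controls. The cond.2 controls were above all 9 other libraries, and the log2 difference was −1.19 (SE 0.29, adjusted p = 0.0939, edgeR). *Vm26Aa*, a vitelline membrane protein, had 6215, 4971 and 3265 CPM in cond.2 knockouts, against 1066, 2427 and 1824 CPM in cond.2 controls, and 4885 to 5156 CPM in cond.19-4 knockouts, against 4342 to 6044 CPM in cond.19-4 controls. Here the cond.2 controls were below all others, and the log2 difference was 1.46 (SE 0.38, adjusted p = 0.108, edgeR). *Cp18*, a chorion protein, had a log2 difference of 1.36 (SE 0.33, adjusted p = 0.0939, edgeR). Without libraries 1 of both cond.2 groups the medians of the yolk, vitelline membrane and chorion lists were −0.71, 0.93 and 0.91.

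**Figure D5:**
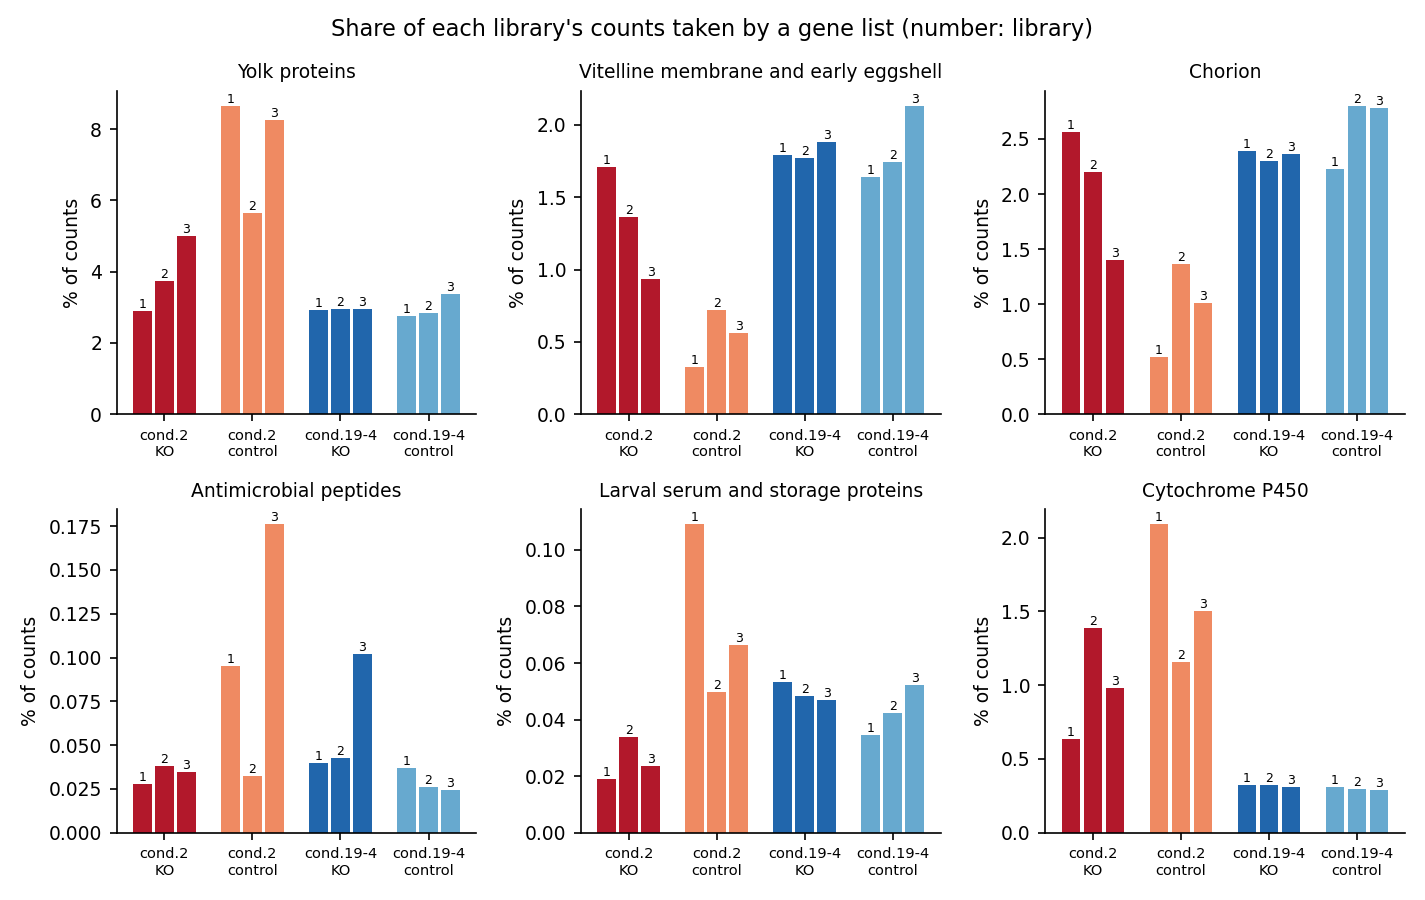
Share of the counts of each library taken by 6 gene lists, in percent, with the library number above each bar. The cond.2 controls are highest for yolk proteins and lowest for vitelline membrane genes, and the antimicrobial peptides are high in control library 3 of cond.2 and in knockout library 3 of cond.19-4.

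Among the more positive genes nearest the threshold, several passed it for the cond.2 response and not for the cond.19-4 response. *CG31926* had 78.6, 63.0 and 42.0 CPM in cond.2 knockouts, against 13, 24.8 and 16.4 CPM in cond.2 controls, and 52.4, 43.3 and 47.5 CPM in cond.19-4 knockouts, against 44.6, 60.6 and 64.9 CPM in cond.19-4 controls. Its cond.2 controls were the low group, and the log2 difference was 2.01 (SE 0.35, adjusted p = 0.0570, edgeR). *kst*, the heavy beta-spectrin of the apical membrane, rose by 0.61 (SE 0.07) with cond.2, and its cond.19-4 response was 0.07 (log2 difference 0.54, SE 0.10, adjusted p = 0.0570, edgeR). *Acer*, a peptidase related to angiotensin-converting enzyme, rose by 0.51 (SE 0.07) with cond.2 and had a cond.19-4 response of −0.05 (log2 difference 0.56, SE 0.10, adjusted p = 0.0570, edgeR).

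*CG14456* was the more positive gene with the lowest p. It had 9.1, 7.11 and 6.87 CPM in cond.2 knockouts, against 3.75, 4.34 and 3.89 CPM in cond.2 controls, and 1.7, 2.57 and 2.13 CPM in cond.19-4 knockouts, against 3.09, 3.7 and 4.34 CPM in cond.19-4 controls. Its controls overlapped between the stocks (log2 difference of the controls 0.11), while its knockouts lay above the controls with cond.2 and below them with cond.19-4. The responses were 0.95 (SE 0.19, adjusted p = 0.0127) and −0.79 (SE 0.21, adjusted p = 0.144, edgeR), and the log2 difference was 1.74 (SE 0.28, adjusted p = 0.0570, edgeR).

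Gut proteases of the Jonah family had the next most positive median, 0.40 over 16 genes. At an unadjusted p under 0.05, 6 (37.5%) were more positive and 0 more negative, against 11.8% and 10.4% of all genes. *Jon74E* had 228.5, 178.7 and 119 CPM in cond.2 knockouts, against 65.9, 81.4 and 67.4 CPM in cond.2 controls, and 318.7, 323.1 and 286.5 CPM in cond.19-4 knockouts, against 391.2, 295 and 348.1 CPM in cond.19-4 controls. Its cond.2 controls were again lowest, and the log2 difference was 1.45 (SE 0.27, adjusted p = 0.0570, edgeR). *Jon25Bi* had a log2 difference of 1.26 (SE 0.24, adjusted p = 0.0694, edgeR).

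Of 87 cytoplasmic ribosomal protein genes, 23 (26.4%) were more positive and 6 (6.90%) more negative with cond.2 at an unadjusted p under 0.05. Over all genes the shares were 11.8% and 10.4%. The median responses of the ribosomal protein genes were 0.18 with cond.2 and 0.08 with cond.19-4. In the single-allele responses of the joint fit, 32 of them rose with cond.2, where 7.84% of all genes did. With cond.19-4, 0 did, where 0.409% of all genes did (edgeR). This contrast depends on the joint fit. In separate fits of the 6 libraries per allele, only 16 genes of any kind rose with cond.2 and 259 with cond.19-4. The median log2 difference of the ribosomal protein genes was 0.07 and none passed the threshold for it. The 23 became 12 without control library 3, 13 without knockout library 1 of cond.19-4, 15 without knockout library 1 of cond.2 and 13 without libraries 1 of both cond.2 groups. Of 46 translation factors, 15 (32.6%) were more positive and 2 (4.35%) more negative, with a median log2 difference of 0.15. *eIF3-S9*, an initiation factor subunit, had a log2 difference of 0.54 (SE 0.12, adjusted p = 0.0908, edgeR). With library sizes from total counts the median log2 difference of all genes was 0.09 and not 0.00. Then 27 ribosomal protein genes were more positive and 3 more negative, as were 1543 and 662 of all 10029 genes.

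DNA replication genes had a median log2 difference of −0.09 over 31 genes. At an unadjusted p under 0.05, 4 (12.9%) were more negative and 1 (3.23%) more positive, against 10.4% and 11.8% of all genes. The more negative share was thus near that of all genes. *Mcm3*, a subunit of the replicative helicase, fell by 0.52 with cond.2 and had a cond.19-4 response of −0.08 (log2 difference −0.44, SE 0.10, adjusted p = 0.0939, edgeR). *Orc2*, of the origin recognition complex, had a log2 difference of −0.47 (SE 0.14, adjusted p = 0.121, edgeR). *nos* (nanos), a maternal regulator of translation in the germline, had 156.5, 158.1 and 170.3 CPM in cond.2 knockouts, against 248.4, 242.1 and 221.8 CPM in cond.2 controls, and 121.5 to 137.3 CPM in cond.19-4 knockouts, against 136.9 to 143 CPM in cond.19-4 controls. The cond.2 controls were highest, and the log2 difference was −0.46 (SE 0.09, adjusted p = 0.0712, edgeR). The 18 germline genes did not share this direction, with 8 negative and 10 positive log2 differences and a median of 0.04. At an unadjusted p under 0.05, 3 of them (16.7%) were more negative and 5 (27.8%) more positive.

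Several groups had close median responses with both alleles. The 69 nuclear genes of oxidative phosphorylation had a median log2 difference of 0.03, with 7 more positive and 5 more negative at an unadjusted p under 0.05, and 1 to 11 more negative and 3 to 8 more positive when any 1 library was left out. In the single-allele responses of the joint fit, 18 of them rose and 1 fell with cond.2, against 7.84% and 6.26% of all genes. With cond.19-4, 0 rose and 0 fell, against 0.409% and 0.528% (edgeR). The 72 mitochondrial ribosomal proteins had −0.02 (3 and 7), the 34 proteasome genes 0.01 (2 and 1) and the 21 muscle sarcomere genes 0.00 (3 and 2). The 23 heat shock protein genes had a larger median, −0.14, which stayed between −0.27 and −0.12 when any 1 library was left out. Of them, 15 had a negative and 8 a positive log2 difference. At an unadjusted p under 0.05, 0 were more negative and 1 more positive. *Hsc70-4*, that 1 gene, is a constitutive chaperone, with a log2 difference of 0.23 (SE 0.09, adjusted p = 0.179, edgeR). The counts for the difference at an unadjusted p under 0.05 are near the 10.4% and 11.8% of all genes or below them. They do not show that the responses were equal.

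Near *ERR* on 3L, *mthl7* (FBgn0035847, from 8178675 to 8180514), a G protein-coupled receptor of the Methuselah family, rose with both alleles. It had 13.8, 15.9 and 15.6 CPM in cond.2 knockouts, against 4.59, 3.09 and 3.31 CPM in cond.2 controls. It had 15.3, 15.8 and 15.6 CPM in cond.19-4 knockouts, against 0.852, 1.51 and 0.255 CPM in cond.19-4 controls. Knockouts were level between the alleles (difference −0.04) and controls differed by 2.05. The responses were 2.05 (SE 0.29) and 4.14 (SE 0.34), a log2 difference of −2.09 (SE 0.45, adjusted p = 0.0841, edgeR), which passed by DESeq2 and, by edgeR, without knockout library 3 of cond.2 (−2.12, adjusted p = 0.0389) or without control library 2 of cond.19-4 (−2.71, adjusted p = 0.0387). *CG7979* and *Atg18a*, parts of which *ERR2* deletes, had log2 differences of 0.29 (SE 0.18) and 0.35 (SE 0.13), both short of the threshold (adjusted p = 0.364 and 0.154, edgeR). In the single-allele responses, 2 of these 4 genes were lower with cond.19-4 and 0 with cond.2 (edgeR, adjusted p under 0.05). Over all genes the shares were 0.528% and 6.26%. *CG7979* had 199, 266 and 221 counts in cond.19-4 knockouts, against 459, 361 and 292 in their controls. With cond.2 its counts were 701, 834 and 625 in knockouts, against 859, 765 and 832 in controls, which overlap.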

How the data were processed

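RNA from whole females of 4 groups was sequenced in 12 libraries. The authors aligned reads to the Ensembl fly genome (TopHat) and obtained gene counts from HTSeq, and the deposited values are these raw counts. The sources used here do not give versions, genome build or strand use. Of 17558 gene identifiers, 17252 were found in Ensembl BDGP6, where 98.4% have the same start and end. The deposited gene length, another column of the table, was not used in any test. For 5 genes the name had turned into a date and was restored from the identifier.

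The test was edgeR's quasi-likelihood F test (edgeR 4.0.16, R 4.3.3) with trimmed mean of M values normalization, filterByExpr over 4 groups and Benjamini-Hochberg adjustment over 10029 genes. The contrast was the difference of the responses in 1 fit, and the code was checked on simulated data. DESeq2 1.42.0 and limma 3.58.1 gave alternatives, and plots used matplotlib 3.10.9 under Python 3.11.15 with pandas 2.3.3. SE is the log2 difference divided by the square root of its F statistic, and CPM uses the normalized library sizes of the same fit.

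Named genes follow a rule that took each gene past the threshold, up to 12 per direction by p with at least 1 CPM in a group, and up to 12 per direction by size among genes called by DESeq2 with at least 10 CPM in a group. It also took up to 6 per opposed pattern, up to 3 per list by p, and the study's own genes with the *ERR* locus. Values of *Lsp2*, *GstD1* and the glycolytic genes named to complete the pathway were given outside this rule. The lists, the rule and the alternatives were chosen with earlier results of these data known. No list was tested. Lists are described by counts and medians beside those of all genes.

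Each group's replicates are separate samples by their labels, from independent experiments. The p-values measure the spread between replicates, estimated jointly over the 4 groups. The median biological coefficient of variation was 0.104 in that fit, against 0.13 for cond.2 and 0.0763 for cond.19-4 in separate fits. A p-value of a single-allele response thus does not measure the spread of that allele alone. Replicate numbers were not taken to pair samples. The deviations of same-numbered libraries had correlations of −0.298 to 0.106, with 1 of 18 above 0.1. No 2 libraries had identical counts. Alternatives changed the test, normalization, filter, threshold, replicate block and libraries.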

Additional observations from a re-analysis of the deposited data

Results flagged for a closer look

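The 6 genes past the threshold are those whose response differed between the alleles by a test of the difference itself, the interaction in the edgeR fit of 12 libraries. Their log2 differences, cond.2 response minus cond.19-4 response, were −1.46 for *Gapdh2*, −0.78 for *Tpi*, −2.92 for *Lsp1alpha*, −1.01 for *Pfk*, −3.11 for *Cyp4e3* and −1.59 for *GstD2*. The 3 glycolytic genes fell with both alleles and further with cond.2, *Lsp1alpha* fell with cond.2 and rose with cond.19-4, *Cyp4e3* fell with cond.2, and *GstD2* rose with cond.19-4.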

How the results depend on the processing

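The difference between the responses was called for 6 genes by edgeR. DESeq2 called 459, limma voom 2, edgeR with total counts as library sizes 3, edgeR with every gene that had at least 1 count 40 (22 more negative, 18 more positive), the newer quasi-likelihood scheme, added after seeing the data, 3, and edgeR without libraries 1 of both cond.2 groups 26. At adjusted p thresholds of 0.01 and 0.10 there were 1 and 186. With total counts the split at an unadjusted p under 0.05 was 662 more negative and 1543 more positive, against 1043 and 1179. Leaving out 1 library gave 1 to 489. The numbers were not taken to pair samples. A replicate block in the fit left 2 genes, 1 of them among the 6, and with a replicate block within each allele 1 passed. For the cond.2 response (1414 genes) the replicate block gave 757, and the block within each allele 118. The cond.2 response was 232 genes at an adjusted p under 0.01, 2498 under 0.10, 212 with a log2 response of at least 1, 61 in its own 6 libraries, 365 without libraries 1, and 378 to 1641 with 1 library left out. With total counts its split was 380 lower and 1032 higher, against 628 and 786. The cond.19-4 response (94 genes) was 53 with a replicate block within each allele, 175 by DESeq2, 54 under 0.01, 37 with a log2 response of at least 1, 360 in its own 6 libraries, 196 without libraries 1 of cond.2, and 57 to 129 with 1 library left out. The older scheme of edgeR is the default of this version and gave the main values. The sign of *Zw*, near 0, turned by DESeq2 (−0.00415), voom (−0.0106), DESeq2 size factors (−0.00522), the filters of 1 (−0.00480) and 10 counts (−0.000863) and the 2 replicate blocks (−0.00327 and −0.00735), and ranged from −0.102 to 0.0704 with 1 library left out. *MtnA* turned to 0.0347 without libraries 1 of cond.2. With 1 library left out *MtnA* ranged from −0.54 to 0.0123, *TotA* from −0.44 to 0.0398, *TotM* from −1.30 to 0.0484 and *CG16985* from −0.0637 to 0.122. No other gene taken by the naming rule changed sign in any alternative run. At 3 libraries per group, small differences between the alleles are not detectable here.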

Other observations

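*Tsf1*, the iron-binding transferrin of the haemolymph, was among the most abundant transcripts with a large difference. It had 809.1, 1855 and 2254 CPM in cond.2 knockouts, against 10910, 2926 and 8387 CPM in cond.2 controls, and 596.1 to 784.5 CPM in cond.19-4 knockouts, against 565.9 to 704.4 CPM in cond.19-4 controls. The cond.2 controls were highest and the cond.2 knockouts lay between them and the cond.19-4 libraries, and the log2 difference was −2.24 (SE 0.59, adjusted p = 0.109, edgeR; adjusted p = 0.0147, DESeq2). *CG42807* and *CG14499* had, like *GstD2*, a cond.2 response near 0 (0.05 and 0.04) and a rise with cond.19-4 (1.49 and 1.67, adjusted p = 0.000613 and 0.000856, edgeR), with log2 differences of −1.44 and −1.63 (adjusted p = 0.0570 each, edgeR). Of the 28 UDP-glycosyltransferases tested, which conjugate sugars to toxins, 6 were more negative with cond.2 at an unadjusted p under 0.05 and 0 more positive, against 10.4% and 11.8% of all genes. The 6 became 14 without knockout library 2 of cond.2 and 3 without control library 1 of cond.2 or control library 3 of cond.19-4, and the median log2 difference of −0.46 became −0.75 without knockout library 2 of cond.2 and −0.26 without control library 1 of cond.2. *Ugt37a1* led them with a log2 difference of −3.47 (SE 0.78, adjusted p = 0.0921, edgeR), from responses of −1.69 and 1.78. The cond.19-4 response of *Ugt37a1* missed the threshold (SE 0.67, adjusted p = 0.456, edgeR). It was a ratio to controls near the floor, with 0.13, 0.68 and 1.33 CPM.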
